A study of Homo sapiens with 8 samples.

Results

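The regions described here are 21 of the 14191 sites in 2 lists of accessible chromatin that the authors made from ATAC-seq, an assay in which the Tn5 transposase cuts and tags open DNA. A site was taken where its centre lay in 1 of 5 intervals of the hg19 genome around homeobox genes of the DLX and MSX families. These genes were chosen with earlier results of these data known, so the choice was not blind to the lists. The intervals were chromosome 2 from 172.7 to 173.2 Mb (DLX1 and DLX2), chromosome 7 from 96.2 to 97.0 Mb (DLX5 and DLX6), chromosome 17 from 47.9 to 48.2 Mb (DLX3 and DLX4), chromosome 4 from 4.5 to 5.3 Mb (MSX1) and chromosome 5 from 173.8 to 174.6 Mb (MSX2). The samples were 8 samples of H9, a human embryonic stem cell line, with 2 in each of 4 groups. Genotype p63-/- cells were taken at day 7 of differentiation in 1 uM retinoic acid (RA) and 5 ng/ml BMP4, and wild-type cells were taken after the same treatment. Both are labelled surface ectoderm, the embryonic epithelium from which epidermis forms. A TetO:Tp63+/- line was taken at day 0 after 2 days in 2 ug/ml doxycycline, and wild-type stem cells were taken at day 0. The labels do not say how many clones stand behind the knockout or the TetO line.

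By its name, the first list (6037 sites) holds chromatin that the morphogens open and p63 closes, and the labels tie it to p63-/- and wild-type cells at day 7. These are called p63-closed sites below. The second list (8154 sites) holds chromatin that the morphogens open, and the labels tie it to wild-type cells at day 7 and at day 0. These are called opened sites. No site stands in both lists. Each list gives positions only, so the direction of each change is the authors' own, the read depth is unknown, and no value per sample could be compared. No list was analysed here for the TetO line. With no expression values, the labelled cell types could not be checked against their markers.

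DLX genes are vertebrate relatives of the fly gene Distal-less and lie in pairs, whose members can share enhancers placed between, beside or far from them. They act in forebrain interneurons (DLX1, DLX2), in limb, ear and craniofacial bone (DLX5, DLX6) and in differentiating epidermis, hair and teeth (DLX3), while DLX4 is known from the placenta. MSX1 and MSX2 are related homeobox genes that respond to BMP signalling at the border of the neural plate, in teeth, skull and skin appendages. p63, encoded by TP63, is a transcription factor of the p53 family that stratified epithelia require. By gene order in RefSeq on GRCh38.p14, the nearest named protein-coding genes are METAP1D and ITGA6 beside DLX1 and DLX2, SEM1 and SDHAF3 beside DLX6 and DLX5, TAC4 and ITGA3 beside DLX4 and DLX3, STX18 and CYTL1 beside MSX1, and NSG2 and DRD1 beside MSX2. hg19 positions of genes were not used here, so whether a site overlaps a gene, its start or a neighbour was not determined.

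The paralogues MSX2 and MSX1 stood at opposite ends of the site counts, so the 250 bases before each gene start are shown so that they can be compared. They come from the RefSeq promoter table (GRCh38.p14, plus strand for both), which held 5 of the 8 genes. The build differs from that of the sites, so the positions of sites and promoters cannot be set against each other. The MSX2 stretch is chr5:174724332-174724581 and the MSX1 stretch is chr4:4859415-4859664. Capitals mark matches, on either strand, to TAATTA (the core that many homeodomains bind) and CCAAT (the CCAAT box).
MSX2: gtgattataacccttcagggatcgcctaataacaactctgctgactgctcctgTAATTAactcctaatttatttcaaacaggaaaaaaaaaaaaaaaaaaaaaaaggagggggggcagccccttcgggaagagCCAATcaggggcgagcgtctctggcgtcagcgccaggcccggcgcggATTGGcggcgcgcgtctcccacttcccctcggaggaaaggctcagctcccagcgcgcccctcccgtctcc
MSX1: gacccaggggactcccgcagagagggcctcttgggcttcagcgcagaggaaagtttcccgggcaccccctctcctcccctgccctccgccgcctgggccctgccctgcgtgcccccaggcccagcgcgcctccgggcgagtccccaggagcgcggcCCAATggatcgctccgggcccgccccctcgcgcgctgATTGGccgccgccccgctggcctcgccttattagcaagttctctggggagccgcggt
The MSX2 stretch held 1 TAATTA, a word present in 4.35% of all 35116 promoter stretches of this length, while the MSX1 stretch held 0. Each stretch held 2 CCAAT matches, and 32.0% of all stretches had at least 1. GCCNNNGGC, the palindrome of AP-2 factors (19.8% of stretches), and AGGTCA, the half-site of retinoic acid receptors (12.1%), were also searched on both strands and matched in neither. These matches describe letters only and show no binding.

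Over the 5 intervals, 16 sites were p63-closed and 5 were opened, so 76.2% of the listed sites were p63-closed (exact Clopper-Pearson 95% interval 52.8 to 91.8%). Among the other 14170 listed sites the share was 42.5% (41.7 to 43.3%). Without the MSX2 interval, 7 of 11 sites were p63-closed, a share of 63.6% with an interval of 30.8 to 89.1% that covers the share elsewhere. The share was 90.9% around the MSX genes (10 p63-closed and 1 opened) and 60.0% around the DLX genes (6 p63-closed and 4 opened). These intervals cover counting error only and treat each site as independent, although neighbouring sites tend to share a list. They also take no account of the choice of loci with earlier results known. On the 5 chromosomes that hold the genes, 43.1% (chromosome 4) to 48.7% (chromosome 5) of all listed sites were p63-closed.

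**Figure D1:**
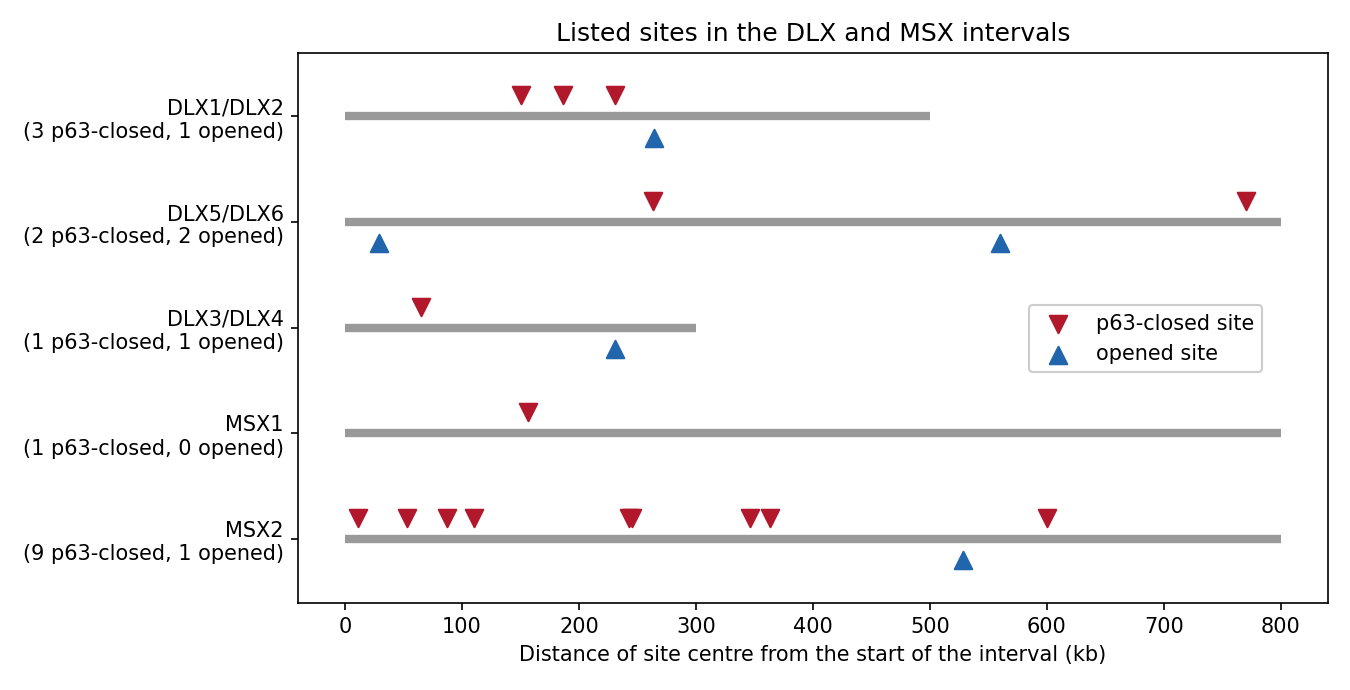
Positions of the 21 sites as distance in kb from the start of each interval (grey bars), with p63-closed sites above the bar and opened sites below it. MSX2 holds 9 p63-closed sites and 1 opened site, MSX1 holds 1 p63-closed site, and sites of the 2 lists alternate along the DLX5/DLX6 interval.

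The MSX2 interval held 10 sites, more than any other of the 5. MSX2 encodes a homeodomain repressor of skull, skin appendage and mammary development. The first 4 sites, all p63-closed, formed a group within 101 kb, from 173809362 to 173910737, with neighbouring centres 22.6 to 42.0 kb apart. This group was cut off by the lower end of the interval, since another p63-closed site, 35.0 kb outside that end, was near enough to join. The 4 sites inside were 2744, 2473, 2899 and 1415 bp wide. The first 3 of them were wide for their list: the widest, from 173885959 to 173888857, was reached or passed by 4.90% of all p63-closed sites. A pair followed, at 174042622 to 174043489 and 174044802 to 174046387, with centres 2.54 kb apart. The numbers in their names left 1 unlisted number between them. A further pair lay at 174145795 to 174146551 and 174161968 to 174164236, with centres 16.9 kb apart. Beyond these stood the only opened site of the interval, from 174326961 to 174329101 and 2141 bp wide. The last p63-closed site followed 71.8 kb further on, from 174398982 to 174400675.

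The first 8 of these p63-closed sites belonged to an unbroken run that began outside the interval. With no opened site among them, 10 p63-closed sites ran from 173677923 to 174164236, over 486 kb. Of the 2729 such runs in the lists, 35 (1.28%) held at least 10 sites, and they contained 7.42% of all p63-closed sites. The 9 p63-closed sites of the interval lay 71.8 to 293 kb from their nearest opened site (median 236 kb), where the median over the whole list was 120 kb. Their nearest p63-closed neighbour was 2.54 to 237 kb away (median 22.6 kb, against 74.6 kb over the list). Among 3633 tiles of 800 kb that cover the genome, 0.991% held at least 9 p63-closed sites and 5.04% held at least 10 sites of either list. Having at least 1 opened site was common, in 78.3% of tiles.

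**Figure D2:**
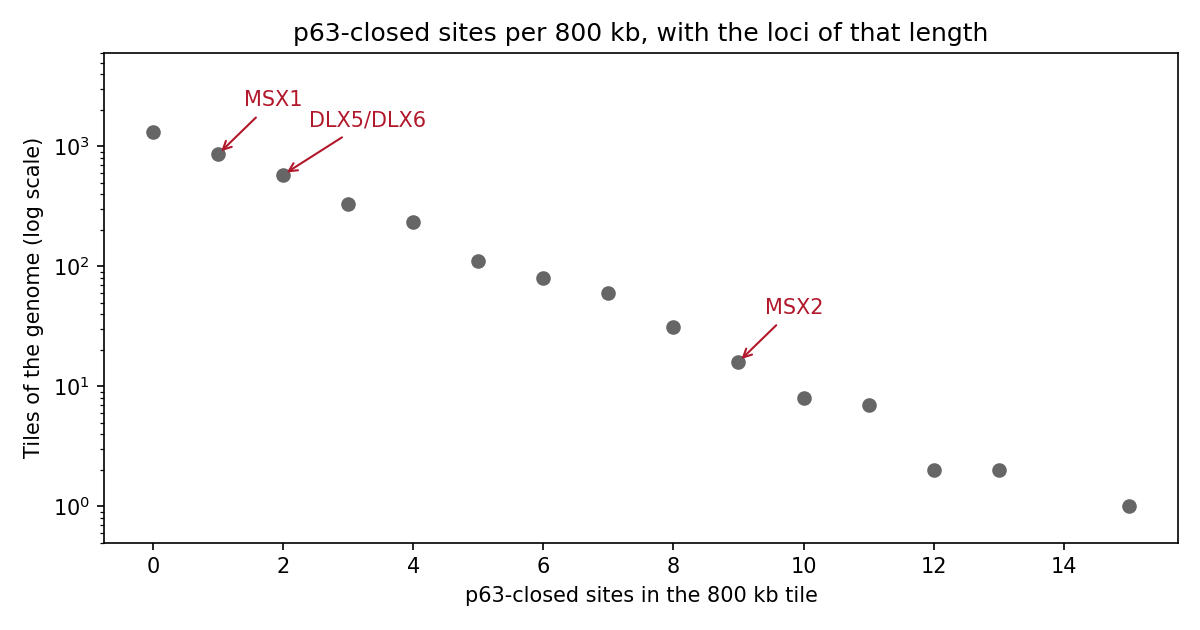
Number of 800 kb tiles of the genome (vertical, log scale) that hold a given number of p63-closed sites (horizontal); each point is a count of tiles, and arrows mark the 3 loci whose interval has the same length. MSX2 stands at 9 sites, a count seen in 16 tiles, DLX5/DLX6 at 2 and MSX1 at 1.

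The MSX1 interval was as long as that of MSX2 but held 1 site. MSX1, a BMP-responsive repressor, is known for its requirement in teeth and palate. The site was p63-closed, 1192 bp wide, from 4656217 to 4657408. Its nearest p63-closed neighbour lay 1658 kb away and its nearest opened neighbour 211 kb away. No opened site lay in the interval. At least 1 p63-closed site was found in 64.0% of tiles of this length, and at least 1 opened site in 78.3%.

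At DLX1 and DLX2, the pair known from forebrain interneurons and the branchial arches, 3 p63-closed sites and 1 opened site formed 1 group over 114 kb. The p63-closed sites came first, at 172849854 to 172851322, 172886106 to 172887375 and 172929812 to 172931739, and were 1469, 1270 and 1928 bp wide. The opened site, from 172963352 to 172964103, was 752 bp wide, and 97.2% of opened sites were at least as wide. It lay 33.0 kb from the last p63-closed site, the shortest distance between sites of different lists in any of the 5 intervals. Its nearest opened neighbour was 462 kb away. The remainder of the interval, beyond the opened site, held no listed site. In tiles of 500 kb, at least 3 p63-closed sites were found in 13.0% and at least 4 sites of either list in 25.5%.

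DLX5 and DLX6, the pair whose locus is rearranged in split hand/foot malformation, had 2 p63-closed and 2 opened sites, and neighbours in the interval always came from different lists. In order these were an opened site at 96227880 to 96229370, a p63-closed site at 96463011 to 96463675, an opened site at 96758678 to 96760658 and a p63-closed site at 96969500 to 96970451. Neighbouring centres inside the interval were 210 to 296 kb apart, so no group formed there. Beyond the upper end, another p63-closed site lay 42.0 kb from the last site, in the same run of 3 p63-closed sites. Both p63-closed sites in the interval were narrow, at 665 and 952 bp, and 98.5% and 88.8% of p63-closed sites were at least as wide. The opened sites were 1491 and 1981 bp wide. In tiles of 800 kb, 40.3% held at least 2 p63-closed sites and 55.4% held at least 2 opened sites.

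DLX3, a regulator of epidermal differentiation, shares its interval with DLX4, and 1 site of each list was found there. The p63-closed site lay at 47963936 to 47965787 and was 1852 bp wide. The opened site lay at 48130451 to 48131485, 166 kb away, and was 1035 bp wide. A tile of 300 kb held at least 1 p63-closed site in 36.3% of cases and at least 1 opened site in 48.1%.

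Counts of sites were then set against a catalogue read from the numbers in the site names, as sites per 1000 entries. The catalogue itself was not at hand, so its entries are inferred, at 0.625 per kb over the genome. For p63-closed sites the density over the 5 intervals was 7.48, and 3.29 over the rest of the genome, a ratio of 2.27 (exact Poisson 95% interval 1.30 to 3.69). This ratio rested on MSX2: without that interval it was 1.32 (0.531 to 2.72). At MSX2 itself the density was 17.0, or 5.15 times that of the other sites (2.36 to 9.78), and the MSX2 interval was the only 1 of the 5 whose range did not include a ratio of 1. The ratio was 2.73 at DLX1/DLX2 (0.564 to 7.99), 1.15 at DLX5/DLX6 (0.139 to 4.15), 1.65 at DLX3/DLX4 (0.0419 to 9.22) and 0.538 at MSX1 (0.0136 to 3.00). For opened sites the density was 2.34 over the 5 intervals and 4.46 elsewhere, a ratio of 0.524 with an interval of 0.170 to 1.22, which includes 1. Per Mb instead of per entry, the ratio over the 5 intervals was 2.43 for p63-closed sites and 0.561 for opened sites. The 800 kb intervals of DLX5/DLX6, MSX1 and MSX2 held 529, 564 and 530 inferred entries. Entries thus nearly follow length, and the 2 measures could hardly differ. All ranges of these ratios cover counting error only and treat each site as independent. They take no account of the choice of loci with earlier results of these data known, so they are not a test of it. At MSX2, however, 8 of the 9 p63-closed sites stood in the same unbroken run.

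**Figure D3:**
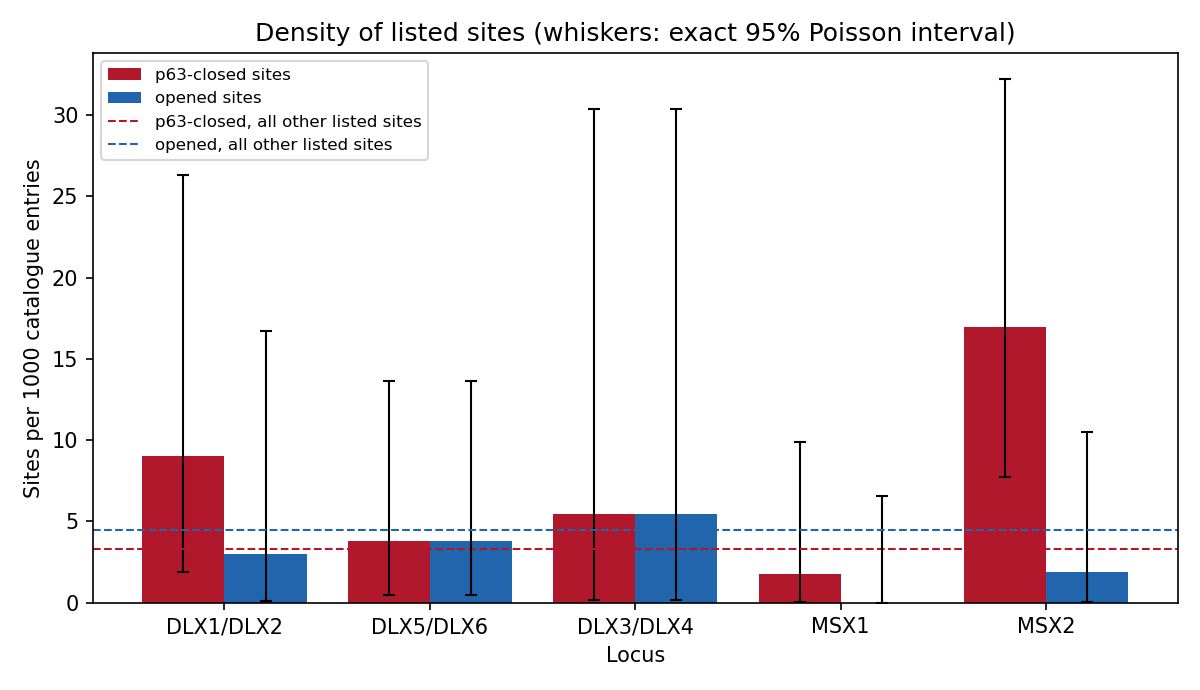
Density of p63-closed (left bar of each pair) and opened sites (right bar) at each locus, in sites per 1000 catalogue entries, with exact 95% Poisson intervals as whiskers and the density of all other listed sites as dashed lines. The interval of the p63-closed bar of MSX2 (17.0) lies above its dashed line (3.29), and the intervals of all other bars include theirs. The intervals treat neighbouring sites as independent and take no account of the choice of loci with earlier results of these data known.

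Windows of 1 Mb that tile the genome gave a test across all sites. The exact Poisson test called 70 of 2948 windows with more p63-closed sites than expected, a background of 2.37%, and 59 with more opened sites, a background of 2.00%. Of the 9 windows that the 5 intervals touch, it called 0 for either list, with 2 below an unadjusted p of 0.05 for p63-closed sites and 0 for opened sites. Over all windows, 8.65% were below that value for p63-closed sites and 9.12% for opened sites. Those 2 windows were the ones at MSX2, which a boundary at 174 Mb divides. The window from 173000001 to 174000000 held 6 p63-closed sites against 2.24 expected (adjusted p = 0.385), and that from 174000001 to 175000000 held 6 against 2.21 (adjusted p = 0.382). With windows shifted by 500 kb, the one from 173500001 to 174500000 held 11 p63-closed sites where 2.20 were expected, which is 5.01-fold as many, and was called (adjusted p = 0.00359). It was the only one called of the 7 shifted windows that touch the intervals, against 2.03% of 2951 windows in all. Of the 7, 3 were below an unadjusted p of 0.05, against 8.68% of all shifted windows. Besides MSX2 these were the window at DLX1/DLX2 from 172500001 to 173500000, with 6 p63-closed sites where 2.19 were expected (unadjusted p = 0.0246, adjusted p = 0.369), and the window at DLX5/DLX6 from 95500001 to 96500000, with 6 where 2.22 were expected (unadjusted p = 0.0256, adjusted p = 0.375). The counts of these windows, and of those at MSX2, include sites outside the intervals. At MSX2 the shifted window held 11 p63-closed sites and the interval held 9. In the shifted window at DLX5/DLX6, only the p63-closed site from 96463011 to 96463675 lay in the interval. The unshifted window from 96000001 to 97000000 held 2 p63-closed sites where 2.18 were expected (Poisson test, unadjusted p = 0.640). A negative binomial test, which allows for the gathering of sites across the genome, called no window at either placement. For p63-closed sites in the shifted window at MSX2, the unadjusted p of the negative binomial test was 0.00756 (adjusted p = 1). Over all windows that test left 120 of 2948 below an unadjusted p of 0.05 for p63-closed sites, none of them among the 9. At the shifted placement it left 106 of 2951.

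The split between the lists was tested in windows with at least 6 sites. Fisher's exact test called 10 of 1072 such windows, a background of 0.933%, and 0 of the 4 that the intervals touch, with 1 below an unadjusted p of 0.05, as were 21.1% of all windows tested. That window, from 174000001 to 175000000 at MSX2, held 6 p63-closed sites and 1 opened site (unadjusted p = 0.0470, adjusted p = 0.223). With windows shifted by 500 kb, Fisher's exact test called 3 of 1059, and 0 of those at the 5 loci. Of all shifted windows tested, 19.6% were below an unadjusted p of 0.05. The shifted window at MSX2, with 11 p63-closed and 2 opened sites, had an unadjusted p of 0.00314 and an adjusted p of 0.0772. The shifted window at DLX5/DLX6 held 6 p63-closed sites and 1 opened site (unadjusted p = 0.0470, adjusted p = 0.239). That at DLX1/DLX2 held 6 p63-closed and 3 opened sites (unadjusted p = 0.183, adjusted p = 0.508). The counts of the windows named here include sites outside the intervals. Fisher's exact test also treats neighbouring sites as independent.

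Widths of the 21 sites were set beside those of the lists that contain them. The 16 p63-closed sites were 665 to 2899 bp wide with a median of 1528 bp, close to the 1531 bp of the list (quartiles 1179 and 2005 bp), and 8 of the 16 were wider than that median. At MSX2, 6 of 9 were wider than it, and at the other loci 2 of 7. The 5 opened sites were 752 to 2141 bp wide, with a median of 1491 bp against 1597 bp for the list. Together the sites covered 1.04% of the 5 intervals, from 0.149% at MSX1 to 2.36% at MSX2, and all other listed sites covered 0.817% of the genome outside them.

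**Figure D4:**
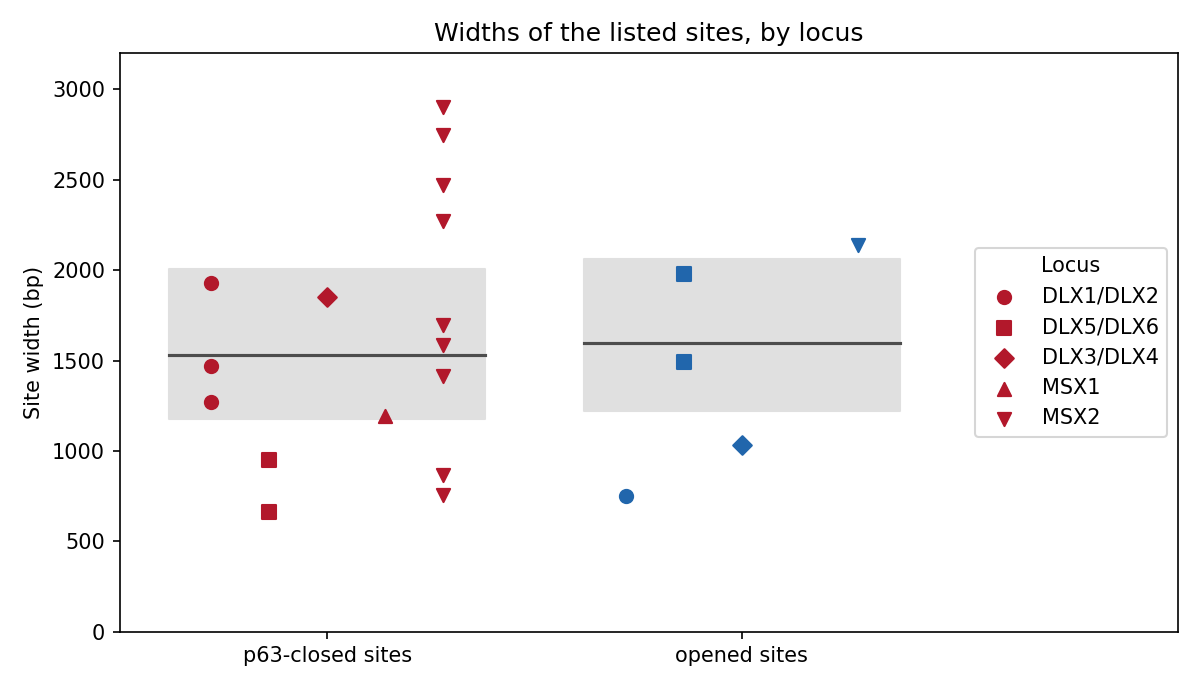
Width in bp of each p63-closed (left) and opened site (right), with 1 point per site and a marker for each locus; grey bands give the quartiles of the whole list and the dark line its median. The 4 widest p63-closed sites, from 2269 to 2899 bp, are at MSX2, and the narrowest, 665 bp, is at DLX5/DLX6.

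The opened sites of these loci stood far from other opened sites. Their nearest opened neighbour was 157 to 711 kb away, with a median of 531 kb, where the median over the list was 74.7 kb. This median rests on 5 sites that are not independent. The 2 opened sites at DLX5/DLX6 were each other's nearest, so the distance of 531 kb counts for both. For the 5 opened sites, the nearest p63-closed neighbour was 33.0 to 235 kb away, with a median of 166 kb against 197 kb over the list. At DLX3/DLX4 the nearest opened site was the closer neighbour, at 157 kb against 166 kb, and at the other 4 opened sites the nearest p63-closed site was. Of the 16 pairs of neighbouring sites inside the intervals, 9 (56.2%) joined sites of 1 list, and so did 61.5% of all 14168 neighbouring pairs. All but 2 of the 9 pairs were at MSX2, and the other 2 at DLX1/DLX2. Groups of at least 3 sites with centres no more than 50 kb apart held 8 of the 21 sites (38.1%), and 29.0% of all listed sites. The order depended on the distance allowed: at 20 kb the shares were 0% and 11.0%, and at 100 kb they were 38.1% and 51.7%. Groups at the 5 loci were counted within the intervals, which cut off any that run past their ends.

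The ends of the intervals decide some members. Just inside the lower end of MSX2, by 10.7 kb, stood the first of its p63-closed sites, and 35.0 kb outside it stood another, at 173763897 to 173766077. The upper end of DLX5/DLX6 had a p63-closed site 30.0 kb inside and another 12.0 kb outside, at 97011217 to 97012701. Below DLX1/DLX2 a p63-closed site lay 36.0 kb outside, while the first one inside was 151 kb from that end. Opened sites lay 54.2 kb below the MSX1 interval and 87.7 kb above that of DLX3/DLX4. With each interval 100 kb wider at both ends, 73.1% of the sites were p63-closed.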

How the data were processed

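Libraries were ATAC-seq of 8 H9 samples in 4 groups. Bowtie2, FastQC, DESeq2, MACS2 and SAMtools, with the builds hg19 and GRCh37, are listed in the submitters' processing notes; versions, cut-offs and pooling are not given there. The authors deposited 2 lists of 4 columns (chromosome, start, end, numbered name), with no count, signal or score, so depth is unknown and p-values describe the lists, not the spread between samples. Positions are 1-based.

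Numbers in the site names served as a catalogue of entries, interpolated between listed sites and bridged by base pairs at 6 jumps. Windows of 1 Mb were tested with a one-sided exact Poisson test against their entries, or a two-sided Fisher's exact test of the split between lists. Both used Benjamini-Hochberg adjustment over all windows tested and a threshold of 0.05. Both were also run on simulated counts drawn independently for each window, without the gathering of sites seen in the lists. Those runs therefore do not show how the tests behave on gathered sites. The members and lists were chosen with earlier results of these data known; the motifs were chosen after the site counts had been seen. Sites named are the widest, grouped and closest ones, and here all 21 are given. Other network genes were not located, for want of hg19 positions. Versions were matplotlib 3.10.9, pandas 2.3.3, scipy 1.17.1, numpy 2.4.6 and Python 3.11.15.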

Additional observations from a re-analysis of the deposited data

How the results depend on the processing

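No paired analysis was possible because neither list gives a value for any sample. For the same reason replicates were not left out one by one, and without scores no stricter cut-off was set. Of 121 comparisons with an alternative setting, 107 stayed within counting error, within 1.5 times the count or on the same side of the threshold. Many of these could hardly have come out otherwise, and the tally is no measure of stability. Over all windows, the negative binomial test called 0 for p63-closed sites and 0 for opened sites, also with windows shifted by 500 kb (0 and 0), and an expectation by base pairs called 107 for p63-closed sites. Windows shifted by 500 kb called 1 window at the 5 loci for p63-closed sites, the one at MSX2. Poisson tests of 500 kb windows, or with an expectation by base pairs, called 0 windows at the 5 loci for p63-closed sites. Their smallest adjusted p at MSX2 was 0.0682 and 0.227. Windows that differ in their split numbered 3 when shifted and 1 at 500 kb. Groups of at least 3 sites within a locus numbered 0, down from 2, with neighbours at most 20 kb apart (0% of the 21 sites, against 11.0% of all listed sites), and 2 at 100 kb (38.1% against 51.7%). The cause of these changes was not tested. Leaving out MSX2 from the density and shifting the negative binomial windows were chosen after seeing the data.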

Other observations

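The opened list is not stored in 1 order. It consists of 3 stretches, each in chromosome order, with 4549, 2706 and 899 sites and median widths of 1469, 1770 and 1710 bp. What the stretches stand for is not given in the sources used here. Of the 5 opened sites at the DLX and MSX loci, 2 were in the first stretch (DLX3/DLX4 and the lower one of DLX5/DLX6), 2 in the second (DLX1/DLX2 and MSX2) and 1 in the third (the upper one of DLX5/DLX6). The p63-closed list is sorted by site name throughout and shows no such stretches. This was noticed after the lists had been seen and was not tested.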
